A study of Homo sapiens with 14 samples.

Results

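A list of 10 genes of the epithelial to mesenchymal transition (EMT) was examined for KLF4 binding in BEAS-2B cells, an established human bronchial epithelial line. The genes were chosen by name and function, with earlier results of these data known, and make up 10 of the 20033 protein-coding genes of the annotation. A KLF4 ChIP-seq peak was assigned to a gene when its summit lay between 10 kb upstream of the gene and 2 kb past its end. With this window the 10 genes held 65 peaks in 50 distinct sites, a site being a run of overlapping peaks from any of the lists.

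During EMT, epithelial cells give up the adhesion proteins that hold them in a sheet and take on the cytoskeleton and matrix of mesenchymal cells. The transcription factors SNAI1, SNAI2, TWIST1, ZEB1 and ZEB2 bind E-box sequences, and the SNAI and ZEB proteins repress CDH1, the gene for E-cadherin. Loss of E-cadherin and EPCAM and gain of N-cadherin (CDH2), vimentin (VIM) and fibronectin (FN1) are the usual markers of the change. KLF4 is a zinc finger factor that binds GC-rich and CACCC sequences and is known both for upholding epithelial genes and for its part in stem cell programs.

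The KLF4 libraries came from WT control cells, WT cells given 1 µM As3+ (trivalent arsenic) for 6 h, Nrf2 KO control cells and Nrf2 KO cells given 1 µM As3+ for 6 h, with 1 library per condition. Nrf2 is the transcription factor of the oxidative stress response. KO cells were made with CRISPR-Cas9 and guide RNAs to exon 2 of the gene, and WT cells were colonies of that procedure that still expressed the protein, so that both came from selected colonies. Whether the KO cells used for ChIP-seq were 1 clone is not stated, and a peak list shows neither the edited exon nor the epithelial state of the cells, so neither label was checked here. The comparisons ask where KLF4 was found at these genes, whether As3+ altered this in WT cells, and whether cells without Nrf2 differed. No condition has a replicate, so no difference between conditions was tested and no p-value is given for one.

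The lists differed greatly in length, with 751 peaks on the assembled chromosomes for WT control, 29870 for WT As3+, 76545 for Nrf2 KO control and 130 for Nrf2 KO As3+. A summit was covered by a median of 25, 10, 7 and 19 fragments in the same order. The lowest local background among the listed peaks was 1.90, 0.757, 0.491 and 1.64 fragments, higher in the pair of short lists. As a minimum over listed peaks it depends on the length of the list, so it does not rank the libraries by background. The part of background in the counts below was not tested, and a peak missing from a list may lie under its threshold. Fold enrichment is the authors' value at the summit, the signal of a library divided by its local background. The only input for KLF4 in the series is labelled BEAS-2B without Nrf2 knockout, and how it entered this background is not given. The ranks given below are by −log10 p within 1 list. The fold is not set against that of another library as a difference in binding.

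The sequences at KLF4 sites that carry the results were read from hg38 in the direction of the gene. The VIM stretch is shown because it lies beside the summits of the only site found in 3 lists, and its capitals mark an AP-1 word (TGAGTCA) followed by a word of the antioxidant response element (ARE, TGACNNNGC), the type of element that Nrf2 binds. It spans chr10:17228523-17228552 on the plus strand, within the first intron of the canonical transcript and within a UTR of another VIM transcript.
VIM: cggTGAGTCAccgccggTGACTAAGCgacc

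The next 3 stretches are centred on WT As3+ summits upstream of the canonical TSS of 3 genes and are shown to set their KLF words side by side. Capitals mark CCACACCC or CCACGCCC, or the looser CCNCNCCC, on either strand. They lie at chr10:31318816-31318935 on the plus strand for ZEB1, and on the minus strand at chr18:28177220-28177339 for CDH2 and chr2:215436603-215436722 for FN1.
ZEB1: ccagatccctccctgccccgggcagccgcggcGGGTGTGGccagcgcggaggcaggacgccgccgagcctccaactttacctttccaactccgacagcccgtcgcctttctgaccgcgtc
CDH2: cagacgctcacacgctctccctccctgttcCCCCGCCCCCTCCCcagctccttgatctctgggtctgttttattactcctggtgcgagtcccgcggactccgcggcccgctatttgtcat
FN1: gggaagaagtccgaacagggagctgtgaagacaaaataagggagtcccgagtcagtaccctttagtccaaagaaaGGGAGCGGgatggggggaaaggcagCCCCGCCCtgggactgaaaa
Of these, the ZEB1 stretch holds the strict word, as GGGTGTGG on the strand shown. The CDH2 and FN1 stretches hold only the looser one, as runs of C or G broken by other bases. A match describes the letters and is not evidence that KLF4 contacted them.

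KLF4 peaks were found at 1 of the 10 genes in the WT control library, namely VIM, at 10 of 10 in WT As3+, at 10 of 10 in Nrf2 KO control and at 0 of 10 in Nrf2 KO As3+. In number of peaks this was 1, 23, 41 and 0. Of all protein-coding genes, 2.51% had a peak in such a window in WT control, 66.5% in WT As3+, 81.0% in Nrf2 KO control and 0.439% in Nrf2 KO As3+. The EMT genes followed the lists as a whole, with many peaks in the middle pair of libraries and next to none in the others.

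**Figure D1:**
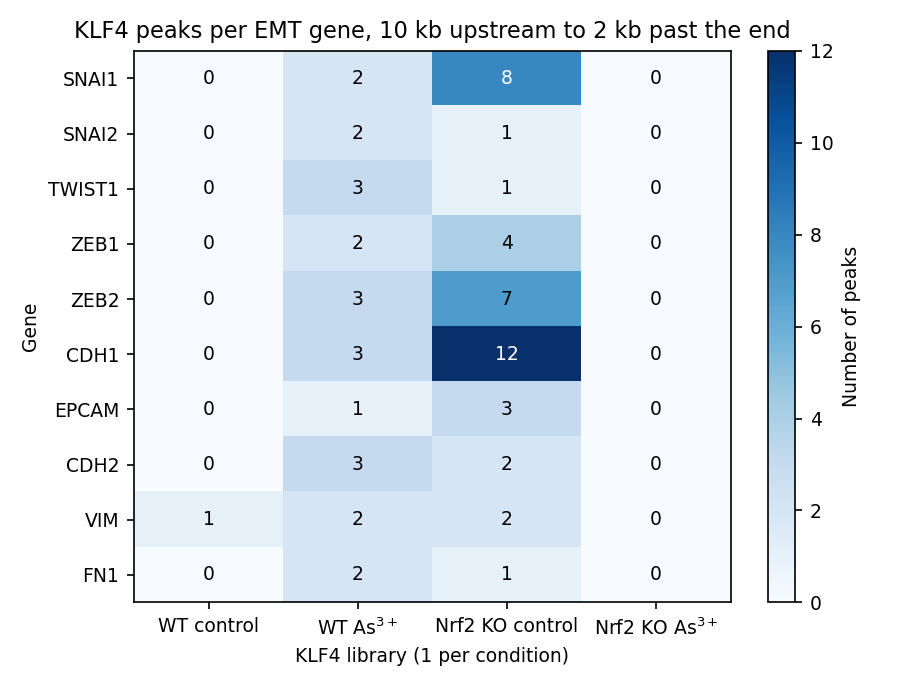
Number of KLF4 peaks in the window of each EMT gene (rows) in each of the 4 libraries (columns, 1 library per condition), with the count printed in the cell and given by the depth of blue. WT control has 1 peak, at VIM, and Nrf2 KO As3+ has 0, while all 10 genes have at least 1 in WT As3+ and in Nrf2 KO control.

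After As3+ treatment of WT cells, 9 of the 10 genes had a peak where the WT control library had none, beside 64.0% of all protein-coding genes. The same 9 genes had peaks in both the WT As3+ and the Nrf2 KO control library and in no other, a pattern that 61.3% of all protein-coding genes shared. VIM is the exception because of its WT control peak. Across the Nrf2 KO cells the counts ran the other way, from 10 genes with a peak in the control to 0 with As3+.

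The EMT genes have long windows, with a median of 98140 bp against 39471 bp for all protein-coding genes, and a long window is more likely to hold a peak. Among the 8260 genes with windows over 50 kb, 75.1% had a WT As3+ peak and 88.6% a Nrf2 KO control peak, beside 7 of 7 EMT genes of that length in each list. Among the shorter windows the shares were 60.4% and 75.6%, beside 3 of 3. This division at 50 kb was chosen after the window lengths were seen. With lists of 29870 and 76545 peaks, finding KLF4 at a given one of these genes was therefore the usual outcome.

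Per 100 kb of window, the median EMT gene had 2.50 WT As3+ peaks against 1.71 for all protein-coding genes, with 8 of the 10 above that median. In the Nrf2 KO control list it had 4.83 against 4.24, with 5 of 10 above. The densest were SNAI2 with 12.4, SNAI1 with 11.2 and VIM with 9.37 peaks per 100 kb in WT As3+, and SNAI1 with 44.7, CDH1 with 10.9 and VIM with 9.37 in the Nrf2 KO control. Each of the 10 genes had at most 3 WT As3+ peaks.

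**Figure D2:**
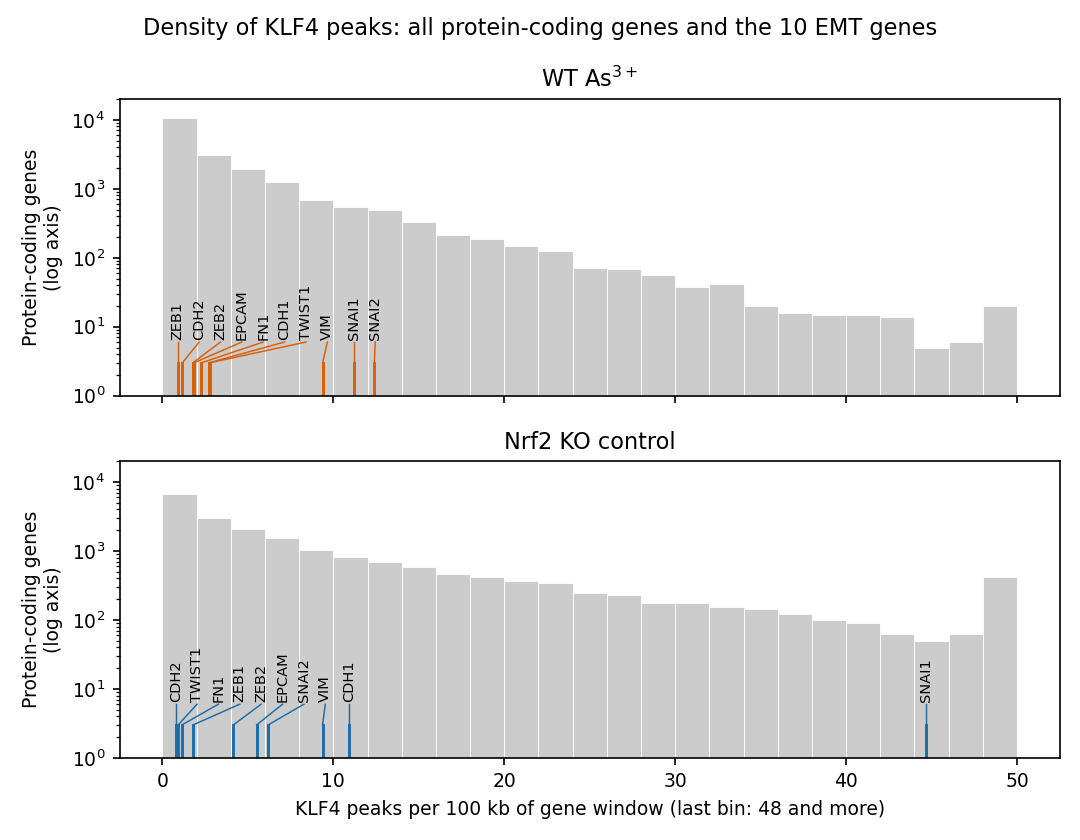
Histogram of KLF4 peaks per 100 kb of gene window (x axis, bins of 2, the last one open) over all protein-coding genes (y axis, number of genes on a log scale), with the 10 EMT genes as coloured ticks. In both lists most EMT genes sit in the lowest bins among the bulk of genes, and SNAI1 stands at 44.7 in the Nrf2 KO control list.

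Most of these peaks had a low −log10 q. At a −log10 q of 5 or more, 6 of the 10 genes kept a WT As3+ peak, namely SNAI1, SNAI2, TWIST1, CDH2, VIM and FN1, beside 38.2% of all protein-coding genes. At the same threshold 5 of 10 kept a Nrf2 KO control peak, namely SNAI1, ZEB2, CDH1, CDH2 and VIM, beside 51.0%. The epithelial markers CDH1 and EPCAM had no WT As3+ peak of this strength and the 3 mesenchymal markers each had at least 1. In the wider lists described below, the highest WT As3+ peaks of epithelial genes did reach it, CDH3 at a −log10 q of 33.4 and ELF3 at 19.2. So did that of the mesenchymal gene COL1A1, at 26.7. The CDH3 summit lay 62505 bp from the canonical TSS and may belong to another gene. Genes of the wider lists were not counted at this threshold. The strict threshold left 9 peaks in WT As3+ and 8 in the Nrf2 KO control, so that the excess of 41 over 23 lay among the peaks below it. When the Nrf2 KO control list was held to the length of the WT As3+ list, it had 18 peaks at 8 of the genes.

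**Figure D3:**
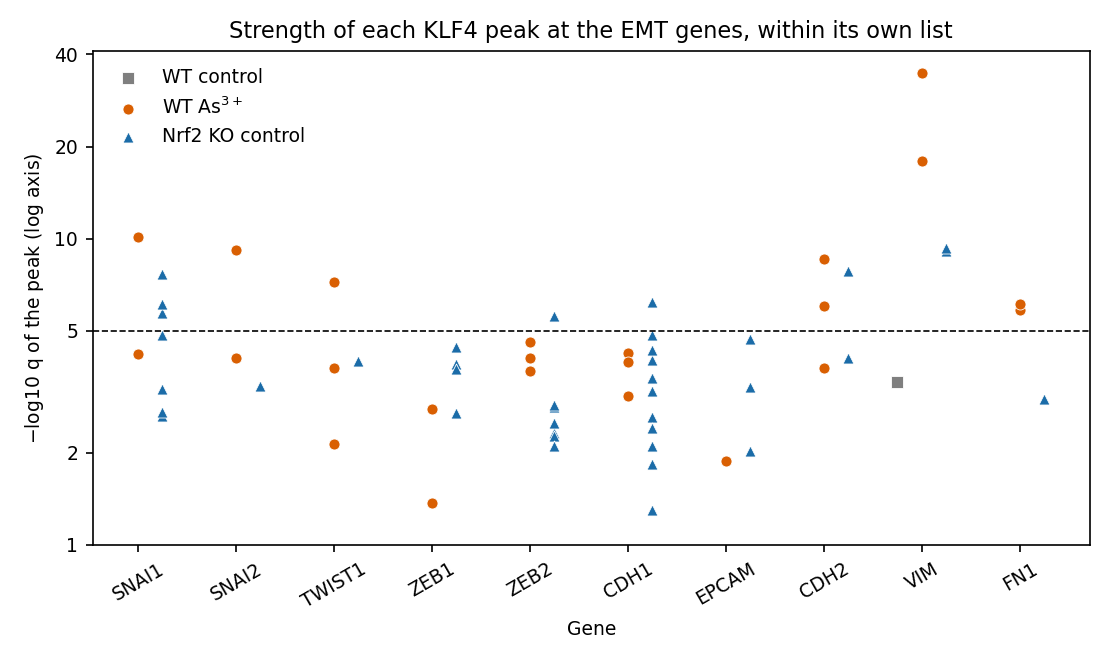
The −log10 q of each KLF4 peak at the EMT genes (y axis, log scale), by gene and library, with a dashed line at 5. VIM has the highest points in WT As3+, at 34.9 and 18.0, and the CDH1 and EPCAM points of that list lie below the line.

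VIM codes for vimentin, the intermediate filament protein of mesenchymal cells, and lies at chr10:17228241-17237593 on the plus strand. It was the only EMT gene with a peak in 3 lists. Positions from here on are those of the summit relative to the canonical TSS, with a minus sign for upstream. In WT control the summit at 319 bp had 29 fragments over a background of 8.71, a 3.09-fold enrichment with a −log10 q of 3.40, which ranked 582 of 751. In WT As3+ the summit at 335 bp had 47 fragments over a background of 2.89, a 12.3-fold enrichment with a −log10 q of 34.9, which ranked 95 of 29870. In the Nrf2 KO control library the summit at 330 bp had 19 fragments over 2.0, a 6.67-fold enrichment with a −log10 q of 9.09. All 3 summits lie in the first intron just past the AP-1 and ARE words shown above, although the peaks were called separately. Of all WT control peaks, 18.2% held an AP-1 word and 12.8% an ARE word in the 200 bp around the summit. As the fold is a ratio to background, 29 fragments over 8.71 in WT control give a lower fold than 19 over 2.0 in Nrf2 KO control. The depth of the libraries is not known, so neither the fragments nor the folds are read as a difference in binding.

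VIM had a second and wider site further into the gene. In WT As3+ it was 1545 bp wide with the summit at 2152 bp in the second intron, and its 30 fragments gave an 8.85-fold enrichment that ranked 515. In the Nrf2 KO control list it was 1455 bp wide with the summit at 1586 bp in coding exon 2, and its 17 fragments gave a 7.35-fold enrichment, the highest of VIM in that list. The intervals overlapped by 1353 bp while their summits lay in different parts of the gene.

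CDH2 and FN1, the other mesenchymal markers, carried their WT As3+ peaks at the promoter. CDH2 (chr18:27932879-28177946, minus strand) had 3 in WT As3+, 2 in Nrf2 KO control and 0 elsewhere. Its highest WT As3+ peak, at −150 bp, had a 7.41-fold enrichment, 14 fragments and a −log10 q of 8.57. This peak of 781 bp lay wholly inside a Nrf2 KO control peak of 831 bp, whose summit was at −495 bp with a 7.43-fold enrichment, 12 fragments and a −log10 q of 7.86. The WT As3+ list also had intron 1 peaks at 1036 and 1516 bp that the Nrf2 KO control list lacked, and the latter had a peak at −997 bp of its own.

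FN1 (chr2:215360440-215436073, minus strand) codes for fibronectin, a glycoprotein of the extracellular matrix. It had 2 WT As3+ peaks and 1 Nrf2 KO control peak. The shared site lay in the 5′ UTR, with the WT As3+ summit at 100 bp, 5.14-fold over background with 16 fragments, and the Nrf2 KO control summit at 129 bp, 4.00-fold with 10 fragments. The second WT As3+ peak, at −595 bp, was 5.92-fold over background with a −log10 q of 6.11, and its nearest TSS was that of the divergent transcript FN1-DT at 356 bp.

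**Figure D4:**
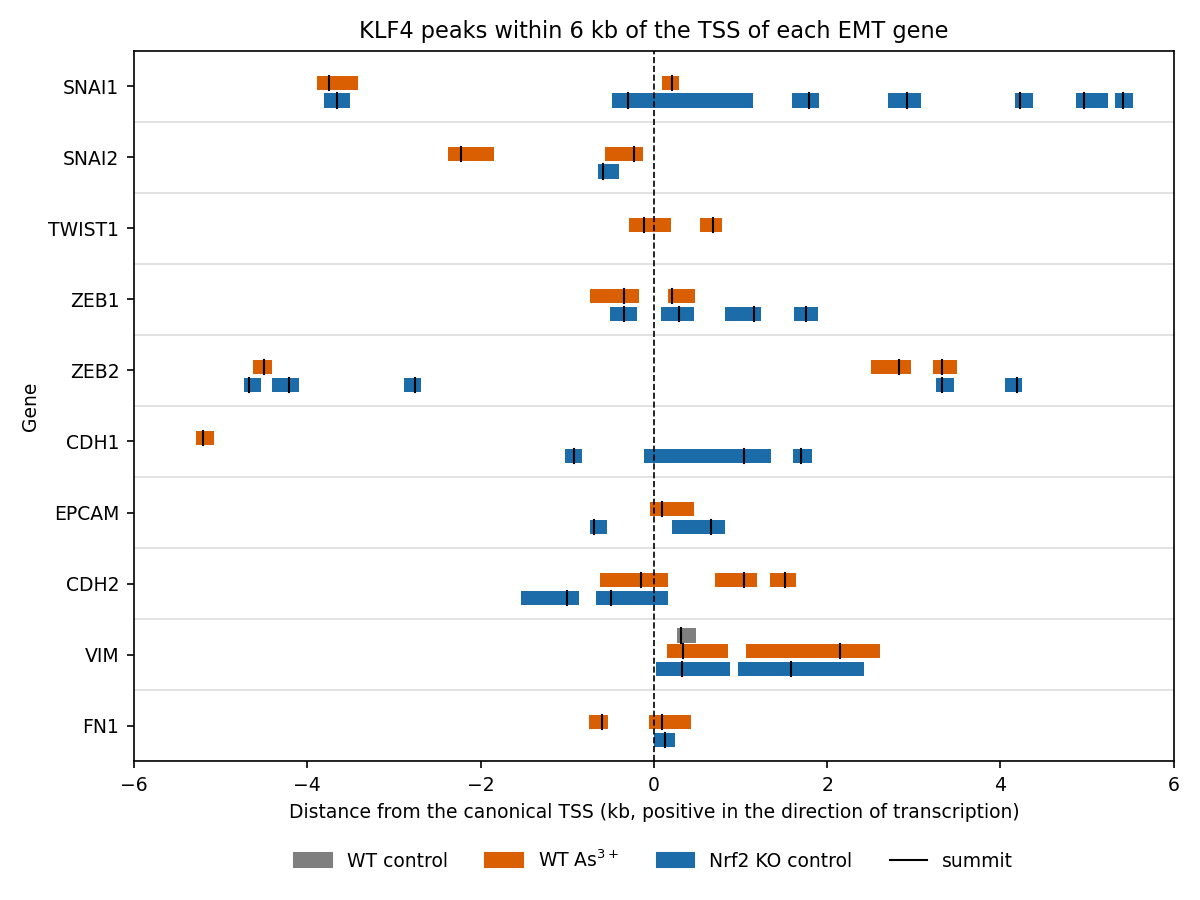
KLF4 peaks within 6 kb of the canonical TSS of each EMT gene, drawn to scale along the direction of transcription (x axis, kb), with bars for peak intervals coloured by library and black ticks for summits. Peaks of WT As3+ and Nrf2 KO control overlap within 1 kb of the TSS at SNAI1, SNAI2, ZEB1, EPCAM, CDH2, VIM and FN1, TWIST1 has WT As3+ peaks only, and CDH1 has Nrf2 KO control peaks only at its TSS.

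Among the transcription factors, SNAI1 and SNAI2 had the highest WT As3+ peaks by −log10 p, and these lay upstream of the TSS. By fold the TWIST1 peak at 678 bp stood above that of SNAI2. SNAI1 (chr20:49982980-49988886, plus strand), which codes for Snail, had 2 peaks in WT As3+ and 8 in the Nrf2 KO control list. Its highest WT As3+ peak, at −3749 bp, was 7.67-fold over background with 17 fragments and a −log10 q of 10.1, and a Nrf2 KO control peak at −3659 bp, 6.00-fold with 11 fragments, lay within it. At the TSS the WT As3+ list had a 4.76-fold peak of 204 bp at 206 bp in the first intron. The Nrf2 KO control list had a peak there of 1624 bp with its summit at −299 bp, 7.09-fold with 13 fragments and the highest of this gene in that list. The other Nrf2 KO control peaks of SNAI1 ran from −8661 bp through intron 2 into the 3′ UTR at 5412 bp, and none of these 6 overlapped a WT As3+ peak.

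SNAI2 (chr8:48917598-48921740, minus strand), which codes for Slug, had 2 peaks in WT As3+ and 1 in the Nrf2 KO control list. The highest, at −2228 bp in WT As3+, was 6.34-fold over background with 20 fragments and a −log10 q of 9.16, and no Nrf2 KO control peak overlapped it. This window of 200 bp was the only one among the WT As3+ peaks of the EMT genes to hold the strict KLF word together with an AP-1 and an E-box word. Nearer the gene, a WT As3+ peak at −229 bp, 4.49-fold with 13 fragments, overlapped a Nrf2 KO control peak at −588 bp, 4.45-fold with 9 fragments.

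TWIST1 was the gene with no shared site. It lies at chr7:19020991-19117636 on the minus strand and codes for a basic helix-loop-helix factor. In WT As3+ it had peaks at 678 bp in coding exon 1 (6.92-fold, 12 fragments, −log10 q 7.25), at −110 bp (4.44-fold) and downstream of the canonical transcript at 10954 bp (3.66-fold). The TSS nearest to the summits at −110 and 10954 bp was that of another gene, at 27 and 5792 bp. The single Nrf2 KO control peak of TWIST1 lay at 9613 bp, beyond the canonical transcript as well, and was 5.16-fold with 7 fragments. Its nearest TSS was also that of another gene, at 4451 bp. With the window drawn on the canonical transcript this peak fell outside, and the Nrf2 KO control list had a peak at 9 of the 10 genes.

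ZEB1 and ZEB2 code for zinc finger homeobox repressors, and neither had a WT As3+ peak at a −log10 q of 5 or more. ZEB1 (chr10:31318495-31529814, plus strand) had 2 peaks in WT As3+ and 4 in the Nrf2 KO control list, all within 2 kb of its TSS. The highest in WT As3+, at −340 bp beside the strict KLF word shown above, was 3.71-fold with 12 fragments, and it overlapped a Nrf2 KO control peak at −343 bp, 4.58-fold with 11 fragments. The second WT As3+ peak, at 213 bp, ranked 29588 of 29870 with 7 fragments and overlapped the highest Nrf2 KO control peak of the gene, at 292 bp and 5.34-fold. Both WT As3+ sites of ZEB1 were thus present without As3+ in the cells that lack Nrf2.

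ZEB2 (chr2:144364364-144521057, minus strand) had 3 peaks in WT As3+ and 7 in the Nrf2 KO control list, and none within 2 kb of the canonical TSS. Its highest WT As3+ peak, at 2831 bp in coding exon 2, was 5.21-fold with 11 fragments and was not shared. At 3328 bp in intron 2 a WT As3+ peak, 4.73-fold with 10 fragments, overlapped a Nrf2 KO control peak at 3322 bp, 4.30-fold with 7 fragments, and both summits lay within 36 bp of the start of another ZEB2 transcript. The highest Nrf2 KO control peak, at −4216 bp, was 6.20-fold with 9 fragments and a −log10 q of 5.59. It met a WT As3+ peak at −4494 bp, 5.18-fold, in 1 bp only. Another Nrf2 KO control peak, at −4673 bp and 3.74-fold, overlapped that WT As3+ peak over 97 bp. The TSS nearest to each of these peaks was that of LINC02993.

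CDH1 was the gene with the most Nrf2 KO control peaks, 12, against 3 in WT As3+ and 0 in the other lists. E-cadherin is the adhesion protein of epithelial junctions, and its gene lies at chr16:68737292-68835537 on the plus strand. No WT As3+ peak lay within 2 kb of the canonical TSS. The WT As3+ peaks were at −5207 bp (3.93-fold, 12 fragments), at 85827 bp in intron 12 (4.95-fold, 11 fragments, the highest) and at 88632 bp in intron 13 (4.91-fold, 10 fragments). The Nrf2 KO control list had a peak of 1462 bp over the TSS, with the summit at 1046 bp in coding exon 2, 6.40-fold with 11 fragments and a −log10 q of 6.23. It had 9 peaks in introns beyond it, of which that at 85819 bp overlapped the highest WT As3+ peak over 200 bp. Both of these summits lay close to the start of another CDH1 transcript, at 134 bp for Nrf2 KO control and 126 bp for WT As3+.

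**Figure D5:**
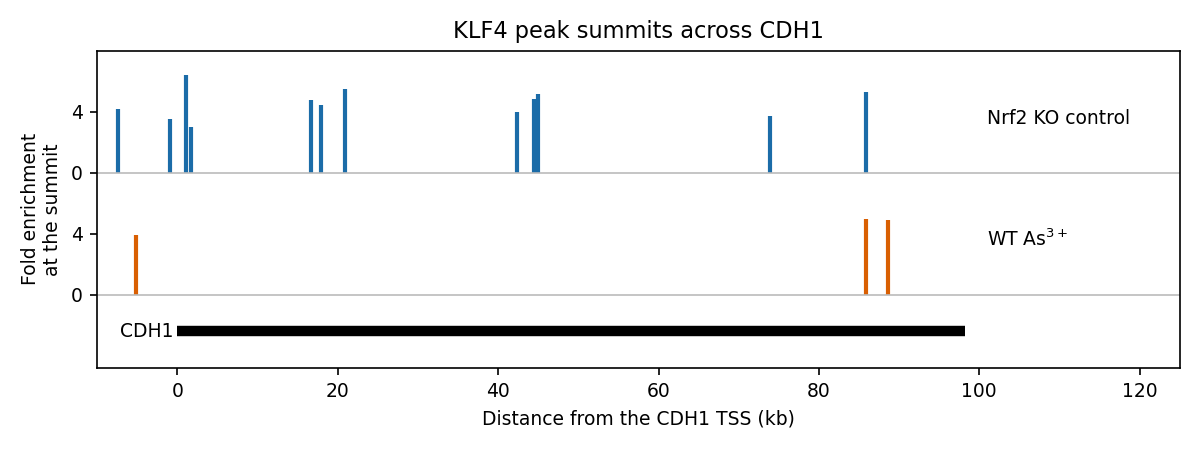
Summits of KLF4 peaks across CDH1 by distance from its TSS (x axis, kb), with the height of each line giving fold enrichment at the summit (y axis, from 0 in each track) and the black bar the gene. WT As3+ has 3 summits, 1 upstream and the others near the 3′ end, and Nrf2 KO control has 12 that include the TSS. Heights are not compared between tracks.

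EPCAM (chr2:47345158-47387601, plus strand), which codes for an epithelial adhesion molecule, had the fewest WT As3+ peaks. That single peak, at 94 bp in the 5′ UTR, was 3.42-fold with 9 fragments and a −log10 q of 1.88, and ranked 28055 of 29870. It overlapped the highest of 3 Nrf2 KO control peaks, at 665 bp in intron 1, which was 5.56-fold with 9 fragments and a −log10 q of 4.72.

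By site, 27 of the 50 were seen in the Nrf2 KO control list only, 10 in the WT As3+ list only, 12 in both and 1, at VIM, in these and in WT control. CDH1 and SNAI1 held 11 and 6 of the sites seen only in the Nrf2 KO control. Of the 23 WT As3+ peaks, 13 overlapped a Nrf2 KO control peak by at least 1 bp, which is 56.5% (34.5 to 76.8, exact Clopper-Pearson 95% interval, counting error only). For the whole WT As3+ list it was 55.6%, so by this measure sharing at the EMT genes was like that of other peaks. In the opposite sense 14 of 41, or 34.1% (20.1 to 50.6), of the Nrf2 KO control peaks overlapped a WT As3+ peak, against 21.7% of that whole list, which is within the interval. By stricter definitions fewer of the 23 WT As3+ peaks were shared. It was 8, or 34.8% (16.4 to 57.3), with summits within 200 bp. With at least 50% of the peak covered it was 10, or 43.5% (23.2 to 65.5). These stricter shares were not computed for the whole list.

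Within 2 kb of any annotated start of the gene, of which ZEB2 has 46 and ZEB1 has 21, lay 18 of 23 WT As3+ summits, 78.3% (56.3 to 92.5), and 24 of 41 Nrf2 KO control summits, 58.5% (42.1 to 73.7). With the canonical TSS alone the shares were 56.5% (34.5 to 76.8) and 41.5% (26.3 to 57.9). By gene, 8 of 10 had a WT As3+ peak within 2 kb of the canonical TSS, beside 52.5% of all protein-coding genes, and the exceptions were CDH1 and ZEB2. Likewise 8 of 10 had a Nrf2 KO control peak there, beside 67.5%, and the exceptions were TWIST1 and ZEB2. By place relative to the canonical transcript, 9 WT As3+ summits were upstream, 9 in introns, 2 in 5′ UTRs, 2 in coding exons and 1 downstream, whereas introns held 21 of the 41 Nrf2 KO control summits. Some summits counted as upstream or downstream in this way lie inside the annotated gene, such as that of ZEB1 at −340 bp. The shares of summits near a start or by place were not computed for the whole lists. Whether those of the EMT genes differ from other peaks is therefore not known.

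In the 200 bp around each summit, the strict KLF word (CCACACCC or CCACGCCC, both strands) was present in 3 of 23 WT As3+ peaks, 13.0% (2.78 to 33.6), against 10.3% of the whole list. The 3 were those at −2228 bp of SNAI2, −340 bp of ZEB1 and 88632 bp of CDH1. In the Nrf2 KO control list it was 4 of 41, 9.76% (2.72 to 23.1), against 9.27%, and CDH1 had 2 of these, with 2 words in the 200 bp at 44978 bp. The looser CCNCNCCC, which includes the strict words, was in 73.9% (51.6 to 89.8) of WT As3+ peaks against 58.0% of the list and in 58.5% of Nrf2 KO control peaks against 50.1%.

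The E-box CAGGTG, the word that SNAI and ZEB proteins bind, searched on both strands like the words that follow, was found in 7 of 23 WT As3+ peaks, 30.4% against 22.0% of the list, and in 13 of 41 Nrf2 KO control peaks, 31.7% against 26.9%. AP-1 words (TGAGTCA or TGACTCA, each the reverse complement of the other) were found in 2 of 23 and 1 of 41 peaks, 8.70% and 2.44%, against 4.33% and 2.54% of the lists. The ARE word TGACNNNGC was found in 2 of 23 and 2 of 41 peaks, 8.70% and 4.88%, against 9.36% and 9.17%, and such a word can contain an AP-1 word. The run CGCGCG was found in 2 of 23 and 1 of 41 peaks, 8.70% and 2.44%, against 10.9% and 6.74%. The whole-list shares for these words lie within the counting intervals of the EMT genes, whose few peaks leave those intervals wide. The median GC content was 64.5% in WT As3+ peaks of the EMT genes and in the whole list, and 61.0% against 61.5% in the Nrf2 KO control.

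Other genes of the EMT network were counted too, 67 in 6 lists. Of these genes 3 had a peak in WT control, 56 in WT As3+, 64 in Nrf2 KO control and 1 in Nrf2 KO As3+, beside 2.51%, 66.5%, 81.0% and 0.439% of all protein-coding genes. Peaks in WT As3+ were found at 9 of 11 further EMT transcription factors, 8 of 10 factors that uphold the epithelial state, 13 of 14 epithelial adhesion and keratin genes, 13 of 15 mesenchymal and matrix genes, 8 of 11 signals that induce EMT and 5 of 6 genes of microRNAs that target ZEB1 and ZEB2. These 5 microRNA genes lie in 2 clusters, MIR200A with MIR200B and MIR429, and MIR200C with MIR141, so that their windows overlap and share peaks, and they are not protein-coding. For Nrf2 KO control the counts were 11, 9, 13, 14, 11 and 6 in that order. Most genes of each epithelial and each mesenchymal list thus had a peak in each of these libraries, as had most protein-coding genes.

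The highest WT As3+ peaks of these lists were 13.2-fold at TWIST2, 8.93-fold at ELF3, an epithelial ETS factor, 13.3-fold at CDH3 (P-cadherin), 10.2-fold at COL1A1 (type I collagen), 11.3-fold at TGFB1, the cytokine that induces EMT, and 9.05-fold at MIR200B. Those of the Nrf2 KO control list were at TCF3, ESRP2, KRT8, ACTA2, TGFB1 and MIR200A, from 7.86-fold at ESRP2 to 10.7-fold at TCF3. Several lay within the window but far from the canonical TSS, at 62505 bp for CDH3 and 16429 bp for TWIST2 in WT As3+, at 43561 bp for TGFB1 in WT As3+ and 30113 bp in Nrf2 KO control, and at −38566 bp for ACTA2 and −22359 bp for KRT8 in Nrf2 KO control. For peaks of the wider lists the nearest TSS of any gene was not determined. The window alone ties them to these genes, and they may lie at other genes. CDH3, COL1A1 and TGFB1 were the 3 genes with a WT control peak, at 5.36-, 3.75- and 4.45-fold. KRT8, a keratin of simple epithelia, was the single gene with a Nrf2 KO As3+ peak, 5.13-fold with 28 fragments. This peak too lay far from the canonical TSS, at −22314 bp.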

How the data were processed

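KLF4 peak lists of 4 ChIP-seq libraries, 1 per condition, were used, and the other 10 samples of the series (H3K4me1, H3K27Ac and input) were not analysed here. The authors aligned 75 nt reads to hg38 with BWA and deposited 1 narrow peak list per library. The peak caller is not given in the sources used here. For each peak the authors deposited a score, a fold enrichment (a ratio to the local background at the summit), and the −log10 p and −log10 q. The lowest −log10 q in the 4 deposited lists was 1.00 to 1.03.

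The fragments over a summit (n) and the background (λ) were solved from fold = (n + 1)/(λ + 1) and p as an upper Poisson tail, which returned the listed −log10 p of every peak to within 0.000405. Read totals were not used, so depth is known only through these values. Peaks off the assembled chromosomes were left out (9, 86, 223 and 10 in WT control, WT As3+, Nrf2 KO control and Nrf2 KO As3+).

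Genes, transcripts and canonical TSS came from GENCODE 44, whose GRCh38 coordinates match the build of the lists. Named were the 10 genes, each with its highest peak by −log10 p in each list, and of the 6 wider lists the counts and the gene with the highest peak. The other peaks of the 10 genes given in the text were added after their values were seen. The genes and lists were chosen with earlier results of these data known. Intervals are exact Clopper-Pearson at 95% and cover counting error only. No replicate exists, so no test was made. Alternatives were a −log10 q of 5, other windows, lists cut to equal length, and other definitions of a shared peak, a TSS distance and a KLF word. The fragment solution, the count of summits in windows and the search for the strict KLF word were tested on simulated data. There 100% of 1752 fragment numbers, 300 planted summits and 1000 planted words were recovered. The merging of sites, the overlap of lists, the distance and place of summits and the other words were not tested in this way. The software was samtools 1.23.1 and Python 3.11.15 with pandas 2.3.3, numpy 2.4.6, pysam 0.24.0, scipy 1.17.1 and matplotlib 3.10.9.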

Additional observations from a re-analysis of the deposited data

Results flagged for a closer look

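The change with As3+ had opposite signs in WT and Nrf2 KO cells. The number of the 10 EMT genes with a KLF4 peak differed by 9 in WT cells (As3+ minus control) and by −10 in Nrf2 KO cells. The number of peaks at these genes differed by 22 in WT cells and by −41 in Nrf2 KO cells. With 1 library per condition this difference was not tested. The lists as a whole moved in these directions too, from 751 to 29870 peaks in WT and from 76545 to 130 in Nrf2 KO cells. In each pair the lowest local background among listed peaks was higher in the library with fewer peaks, but this minimum depends on the length of the list.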

How the results depend on the processing

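Of the alternative values, 53 stayed within 1.5 times the reported count or inside its counting interval and 19 moved. Some of the 53 could not move, so this tally does not measure robustness. Cutting the Nrf2 KO control list leaves the counts of the other libraries unchanged. The count of 0 in Nrf2 KO As3+ cannot rise with a stricter threshold or a shorter list. When the −log10 q had to reach 5, the genes with a peak were 0 in WT control, 6 in WT As3+ and 5 in Nrf2 KO control, with 0, 9 and 8 peaks. With the Nrf2 KO control list held to the length of the WT As3+ list, its peaks fell to 18, fewer than the 23 of WT As3+. With each list held to its strongest 130 peaks, 1 gene (VIM) had a peak in WT As3+ and 0 in WT control and Nrf2 KO control, with 1, 0 and 0 peaks, and the genes with a WT As3+ peak and no WT control peak came to 1. The share of Nrf2 KO control summits near a start was 75.6% within 5 kb and 41.5% for the canonical TSS alone. The looser KLF word gave 73.9% in WT As3+ and 58.5% in Nrf2 KO control, and under the −log10 q threshold of 5 the strict word was in 0% of the 8 Nrf2 KO control peaks, for which counting error allows up to 36.9%. No paired analysis was possible because each condition has 1 library. Read totals were not used, so how far depth limits what a missing peak shows was not tested.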
